A study of Mus musculus with 43 samples.

Results

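Lungs of bleomycin mice that received only vehicle were compared with lungs of control mice that received vehicle, over all genes in the count table. The comparison was defined by the treatment labels and used 26 of the 43 libraries of the series. The bleomycin group held 16 libraries and the control group 10. The other 17 libraries, from bleomycin mice given nintedanib, a tyrosine kinase inhibitor, entered the model to share the estimate of spread. They also entered the choice of tested genes, the scaling of libraries and the slopes of the fat and airway covariates used below. Both groups are mice (Mus musculus), and the material was polyA RNA of the inferior lung lobe, made into directional libraries and read single-end. In the labels the bleomycin group carries the vehicle of nintedanib, the vehicle of the control group is not named, and the effects of vehicle and of bleomycin cannot be told apart where the vehicles differ. Dose, route, day after bleomycin, age, sex and strain are not given in the labels. Each library was taken as 1 mouse, since nothing more is stated, so p-values refer to the scatter among these libraries, which may be partly technical.

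Bleomycin is an antibiotic that binds DNA with iron and oxygen and breaks both strands. The lung is a main site of its toxicity, because the enzyme that inactivates it, bleomycin hydrolase (Blmh), is scarce there. In rodents the drug injures alveolar epithelium and capillaries first. Monocytes then enter and become lipid-laden macrophages, fibroblasts lay down collagen, and part of the injury resolves with time. The bleomycin lung is used as a model of pulmonary fibrosis for this sequence.

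Libraries held 13138281 to 17812995 counts in control mice and 13175246 to 19111457 in bleomycin mice. The markers of lung were present in every library, with Sftpc of alveolar type 2 cells at 8788 CPM (read counts scaled to the size of the library) or more, Ager of alveolar type 1 cells at 1272 or more and the capillary gene Pecam1 at 429 or more. On the first principal component of the 26 libraries, which held 53.9% of the variance, control mice lay between -56.9 and -35.5 and bleomycin mice between -23.5 and 57.8. The bleomycin libraries nearest the controls were replicate 10, at -23.5, and replicate 13, at -12.3. Within a group, the median standard deviation of a gene's log2 CPM was 0.228 in bleomycin mice and 0.156 in control mice, and 79.5% of genes varied more in bleomycin mice. Fat was seen as at least 1 CPM of the adipocyte gene Adipoq in 8 of 10 control libraries and 0 of 16 bleomycin libraries, and large airway as more than 100 CPM of Bpifa1 in 5 and 0. The comparison was therefore also fitted with the mean log2 CPM of the fat genes and that of the airway genes as covariates. It was also fitted without the fat libraries, which leaves 2 control mice. Beside the counts of a gene group, those of these fits follow in the same order.

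Of 14836 tested genes 8585 (57.9%) were called: 4381 rose and 4204 fell in bleomycin lungs by edgeR's quasi-likelihood test (Benjamini-Hochberg adjusted p under 0.05), which are 29.5% and 28.3% of those tested. At least 2-fold, 1493 genes (10.1%) changed, of which 899 rose (6.06%) and 594 fell (4.0%). In 549 genes (3.7%) every bleomycin mouse lay above every control mouse, and in 273 (1.84%) every bleomycin mouse lay below. With the covariates 3256 genes rose (21.9%) and 2565 fell (17.3%), and of the 5369 genes called in both fits 5359 had the same direction. Without the fat libraries 2050 rose (13.4%) and 1604 fell (10.5%), and of 3519 genes called in both fits 3516 had the same direction. The median log2 fold change of all genes was -0.01, which is the value against which the medians of the groups below can be read. With so many genes called in each direction, the count of a gene group says something only where it stands well away from these shares. In whole lobes, a lower level can come from fewer cells of a type or from less RNA per cell, and these cannot be told apart.

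**Figure D1:**
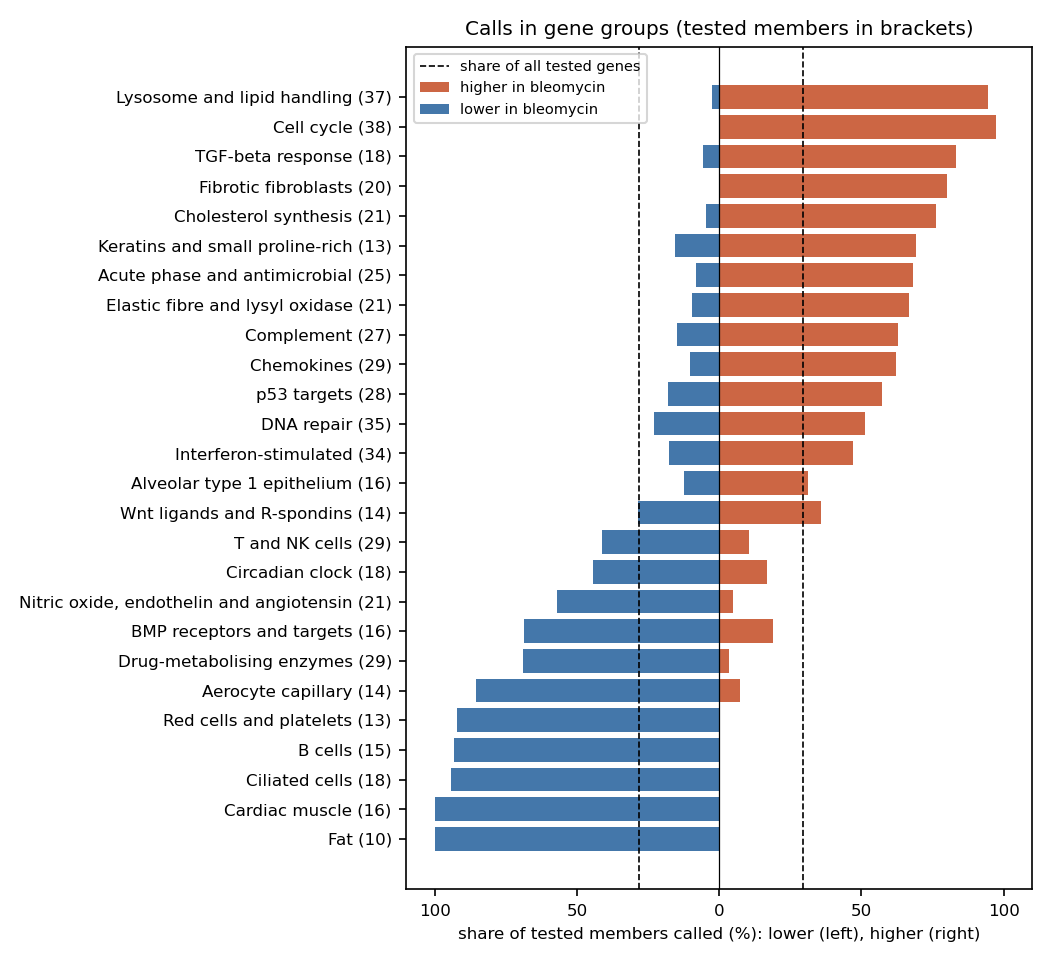
Share of tested members of each gene group that were higher (right) or lower (left) in bleomycin than in control lungs, in percent; dashed lines mark the shares among all tested genes, 29.5% and 28.3%. Lysosome and cell cycle genes stand almost wholly on the higher side, and B cell, red cell, aerocyte and cardiac genes on the lower side.

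Genes of lysosomes were higher in bleomycin lungs almost throughout. Lysosomes digest engulfed material with acid hydrolases such as the cathepsins, and macrophages that clear dead cells and surfactant enlarge this compartment together with genes for lipid uptake and storage. Of 37 lysosome and lipid-handling genes 35 rose and 1 fell, with a median log2 fold change of 1.03, and in 22 of them the groups did not overlap. With the covariates 33 rose, and without the fat libraries 31. Ctss, which encodes cathepsin S, a protease that works at neutral pH as well, stood at 126, 146 and 192 CPM in control mice and 453, 963 and 1212 CPM in bleomycin mice (here and below the lowest, median and highest mouse of a group). The lowest bleomycin mouse was above the highest control mouse, and the log2 fold change was 2.66 ± 0.16 (SE, adjusted p = 2.6e-17, n = 10 and 16). Ctsk, a collagen-degrading cathepsin, changed by 3.03 ± 0.24 on the log2 scale, with an adjusted p of 9.8e-14. Ctsd, the main aspartic protease of lysosomes, changed by 2.32 ± 0.20, with an adjusted p of 5.8e-13. Psap, the precursor of the saposins that help to degrade sphingolipids, rose from a median of 1191 to 3808 CPM. Msr1, a scavenger receptor for modified lipoprotein, rose by 3.18 on the log2 scale, Atp6v0d2, a subunit of the macrophage proton pump, by 2.54, and Cd68, a lysosomal membrane protein of macrophages, by 2.37. The proton pump subunits found in all cells moved less, with Atp6v1a at 0.53 and Atp6v1h at 0.20. Cd36, a fatty acid receptor that capillary endothelium also carries, was the member that fell (-0.52), and the calcium channel Mcoln1 did not pass (0.03, adjusted p = 0.61).

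Trem2, a lipid-sensing receptor of macrophages, had the largest ratio of change to error among the rises of genes whose average log2 CPM was 2 or more. Its levels were 3.48, 5.22 and 6.29 CPM in control mice and 46.3, 74.6 and 92.6 CPM in bleomycin mice, and its log2 fold change was 3.82 ± 0.17 (adjusted p = 4.4e-21). All 16 bleomycin mice lay above every control mouse, and the mice with the lowest values, replicates 10 and 13, were still far above the controls. Gpnmb, a glycoprotein of lipid-loaded macrophages, rose from a median of 23.4 to 328 CPM, and Mmp12, the macrophage elastase, from a median of 5.4 to 85.8 CPM. Markers of the lung's resident macrophages were split. Of 17 genes 11 rose and 3 fell (7 and 4 with the covariates, 7 and 3 without the fat libraries), with Itgax (2.18), the oxidised lipoprotein receptor Olr1 (2.52) and Mrc1 (1.68) higher and Fabp1 (-2.53), Cidec (-3.13), a lipid droplet gene also found in fat, and Krt79 (-1.45) lower. Among 17 genes of interstitial and vascular macrophages 7 rose and 4 fell (5 and 3 with the covariates, 5 and 2 without the fat libraries). Ms4a7 (2.71) was higher, Lyve1, which lymphatic vessels also express, was lower (-1.01), and the monocyte receptor Ccr2 did not pass (0.12, adjusted p = 0.5). Neutrophil genes gave no single direction, with 4 of 15 higher (3 with the covariates, 1 without the fat libraries), among them Clec4d (1.84), and 4 lower (2 with the covariates, 0 without the fat libraries), among them Mmp9 (-1.22) and S100a9 (-1.01). With the fat and airway covariates S100a9 (-1.06) kept the direction but no longer passed.

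**Figure D2:**
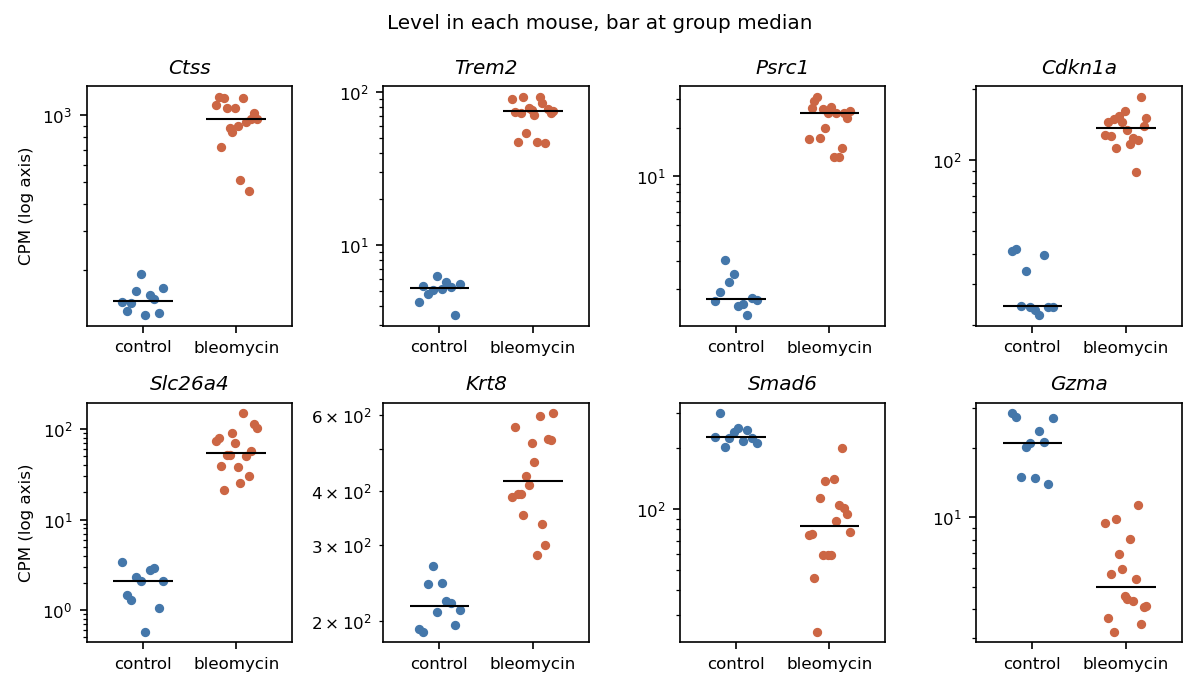
Level in each mouse, in CPM on a log axis, of 8 genes in control (10 points) and bleomycin (16 points) lungs, with the group median as a bar. Ctss, Trem2, Psrc1, Cdkn1a, Slc26a4 and Krt8 do not overlap between groups on the higher side, and Smad6 and Gzma do not overlap on the lower side.

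Secreted products of the innate immune system rose as well. The complement system marks debris for uptake, and its first component, C1q, is made by tissue macrophages. Of 27 complement genes 17 rose and 4 fell (11 and 4 with the covariates, 9 and 1 without the fat libraries). C1qb rose from a median of 22.3 to 137 CPM or by 2.57 ± 0.20 (log2, adjusted p = 9.7e-14). C1qa (2.32), C1qc (2.32) and the receptor C3ar1 (from a median of 5.17 to 33.8 CPM) also separated the groups without overlap. Cr2, the complement receptor of B cells, fell (-1.26), and so did C7 (-0.68). Of 25 acute-phase and antimicrobial genes 17 rose and 2 fell (16 and 0 with the covariates, 12 and 0 without the fat libraries). Saa3, serum amyloid A3, stood at 0.523, 0.779 and 1.23 CPM in control mice and 1.14, 14.9 and 55.7 CPM in bleomycin mice, a spread among bleomycin mice much wider than among controls. Lcn2, an iron-siderophore trap, rose by 2.99 on the log2 scale, Retnla, a product of alternatively activated macrophages, by 2.93, and Ptx3, a soluble pattern receptor, by 2.59. Reg3g, the largest fall of this group (-6.40), is an airway gene. With the fat and airway covariates Reg3g (-0.78), itself a gene of the airway covariate, kept the direction but no longer passed.

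Chemokine genes, which call leukocytes into tissue, were higher in part. Of 29 ligands 18 rose and 3 fell (14 and 1 with the covariates, 6 and 1 without the fat libraries), with a median of 0.77. Of 23 receptors 7 rose and 6 fell (5 and 5 with the covariates, 4 and 3 without the fat libraries). Ccl6, a macrophage chemokine, rose from a median of 106 to 638 CPM, without overlap, and Ccl9 (1.74), Ccl8 (2.15) and the monocyte attractant Ccl2 (1.82) were higher. Cxcl9, an interferon-induced ligand, had a log2 fold change of 2.62, which without replicate 4 was 1.86 (adjusted p = 0.0069). The receptor Ccr1 rose (1.79), and so did Ackr1 (3.07), a scavenging receptor of venules. Ackr4 (-1.66), another scavenging receptor, and Cxcr5 (-1.16), the follicle-homing receptor of B cells, fell. Of 21 interleukins and related cytokines 12 rose and 4 fell (9 and 3 with the covariates, 4 and 2 without the fat libraries). Most of those that rose were low in CPM, such as Osm (from a median of 1.23 to 5.9 CPM), Il23a (from a median of 0.139 to 0.575 CPM) and Il11 (from a median of 0.726 to 1.98 CPM), whereas Il33, an alarmin of alveolar epithelium and fibroblasts, rose from a median of 80.9 to 175 CPM. Il1b, a cytokine matured by the inflammasome, did not pass (0.08, adjusted p = 0.82), and Il12a fell (-1.11). In the tumour necrosis factor superfamily 17 of 35 genes rose and 9 fell (12 and 6 with the covariates, 8 and 3 without the fat libraries), with the costimulatory receptor Tnfrsf9 (2.87) and the receptor Tnfrsf1b (1.44) among the first and Tnfsf10, the ligand TRAIL, among the second (-0.79). Genes of prostaglandin and leukotriene synthesis rose in 14 of 24 cases and fell in 5 (10 and 4 with the covariates, 9 and 2 without the fat libraries). Thromboxane synthase (Tbxas1) rose by 2.08 on the log2 scale and the prostaglandin D synthase Hpgds by 1.98. Hpgd, which inactivates prostaglandins, fell from a median of 471 to 170.5 CPM, and the prostaglandin F receptor Ptgfr fell without overlap (-1.80).

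Interferon-stimulated and antigen-presentation genes moved in both directions. Of 34 interferon-stimulated genes 16 rose and 6 fell (15 and 5 with the covariates, 3 and 6 without the fat libraries), none without overlap. The antiviral synthetase Oas3 rose (1.91) and the guanylate-binding protein Gbp4 fell (-0.98), while Stat2 (0.13, adjusted p = 0.12) and Bst2 (-0.03, adjusted p = 0.74) did not pass. Of 23 genes of antigen processing 12 rose and 4 fell (8 and 1 with the covariates, 3 and 1 without the fat libraries), most rises being less than 2-fold, with Cd74, the class II invariant chain, at 0.83. H2-M2, a nonclassical class I gene, was the exception with 2.37 and no overlap between groups. H2-Ob, which B cells express, fell (-1.05).

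Genes that p53 switches on after DNA damage rose in part. Damage stabilises p53, which then activates brakes on the cell cycle, repair genes, feedback inhibitors and death genes. Of 28 p53 targets 16 rose and 5 fell, and 12 of those that rose did so without overlap, although the median of the group was only 0.26. Psrc1, a microtubule-binding protein, stood at 1.38, 1.74 and 3.03 CPM in control mice and 13.2, 24.7 and 31 CPM in bleomycin mice with a log2 fold change of 3.52 ± 0.17 (adjusted p = 2.7e-20). Cdkn1a, the p21 inhibitor of cyclin-dependent kinases, stood at 22.1, 24 and 41.9 CPM in control mice and 88.5, 136 and 184 CPM in bleomycin mice, with a log2 fold change of 2.19 ± 0.12 (adjusted p = 7.2e-18). No bleomycin mouse came near the control range in either gene, replicates 10 and 13 included. Gdf15, a stress cytokine (2.51), Eda2r, a receptor of the tumour necrosis factor family (1.78), and cyclin G1, Ccng1 (1.27), rose in the same way. The death genes of the list went with no common direction: Bax rose (0.62), and neither Pmaip1 (-0.11, adjusted p = 0.36), Bbc3 (-0.02, adjusted p = 0.85) nor Fas (-0.14, adjusted p = 0.17) passed. Mdm2, the feedback inhibitor of p53, rose by 0.25. Btg2 (-0.50), Rrm2b (-0.48) and the excision repair gene Xpc (-0.39) fell. With the covariates 15 members rose and 4 fell, and without the fat libraries 13 and 4.

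DNA repair genes rose more often than they fell. Of 35 genes 18 rose and 8 fell (11 and 7 with the covariates, 9 and 2 without the fat libraries). Fanci, of interstrand crosslink repair, rose by 1.77 ± 0.33 (log2, adjusted p = 1.5e-05), with Brca1 at 1.73, Exo1 at 1.63 and Rad54l at 1.43. These are genes that dividing cells express. The damage kinases Atm (-0.31) and Atr (-0.23) fell slightly, the end-joining kinase Prkdc did not pass (0.05, adjusted p = 0.43), and Parp1 rose by 0.19. Blmh, bleomycin hydrolase, stood at 51.4, 53.9 and 59 CPM in control mice and 56.1, 65 and 70.9 CPM in bleomycin mice, with a log2 fold change of 0.25 ± 0.04 (adjusted p = 3.8e-07).

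Genes of cell division rose almost as one. Of 38 cell cycle genes 37 rose and 0 fell, with a median log2 fold change of 1.75. With the covariates 36 rose, and without the fat libraries 23. Ccnb1, cyclin B1 of mitosis, stood at 0.814, 1.46 and 1.94 CPM in control mice and 1.85, 10.3 and 20.3 CPM in bleomycin mice, with a log2 fold change of 2.85 ± 0.37 (adjusted p = 1.6e-08). The lowest bleomycin mouse lay inside the control range, and the groups overlapped in all but 2 members, Prc1 and E2f1. Hmmr (2.68), the centromere protein gene Cenpf (2.55) and the checkpoint kinase gene Ttk (2.43) followed. The licensing factors of S phase rose less, with Mcm2 at 0.77, Mcm6 at 0.61 and Mcm4 at 0.21, which without replicate 4 no longer passed (0.17, adjusted p = 0.053). Nek2, a centrosome kinase, did not pass (0.21, adjusted p = 0.34), and with the covariates it did (0.64). Foxm1, the transcription factor of late cell cycle genes, rose from a median of 3.5 to 12 CPM.

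Late cell cycle genes are repressed in resting cells through a promoter element called CHR and activated through CCAAT boxes, and both were searched in the promoters of the list because its members moved together. The RefSeq promoter table (GRCm38.p6) held 32 of the 38 members. In the 250 bases before the start, on either strand, TTTGAA, the most common CHR, was found in 8 of the 32 against 16.3% of all 27025 genes of the table. CCAAT was found in 27 of the 32 (84.4%) against 34.5%, and both motifs in 8 against 5.73%. Of the members that hold TTTGAA, 4 are printed 5′ to 3′ on the strand of the gene. They had the largest rise after members on a chromosome whose promoters are not reported here were set aside. TTTGAA and CCAAT are in capitals wherever they occur on either strand. On the other strand TTTGAA reads as TTCAAA, while CCAAT then reads as ATTGG. All lie on the minus strand.
Cdk1, chr10:69352913-69353162: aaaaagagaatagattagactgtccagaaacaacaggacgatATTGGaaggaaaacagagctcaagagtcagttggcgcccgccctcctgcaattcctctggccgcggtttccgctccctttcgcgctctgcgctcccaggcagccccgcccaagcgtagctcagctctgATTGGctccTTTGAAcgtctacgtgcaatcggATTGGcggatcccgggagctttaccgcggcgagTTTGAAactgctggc
Top2a, chr11:99024190-99024439: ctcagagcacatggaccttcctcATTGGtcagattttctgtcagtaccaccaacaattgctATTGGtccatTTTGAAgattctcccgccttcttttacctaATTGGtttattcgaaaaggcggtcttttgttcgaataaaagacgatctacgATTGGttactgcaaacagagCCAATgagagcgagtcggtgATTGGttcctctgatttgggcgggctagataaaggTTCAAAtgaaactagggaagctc
Mki67, chr7:135716380-135716629: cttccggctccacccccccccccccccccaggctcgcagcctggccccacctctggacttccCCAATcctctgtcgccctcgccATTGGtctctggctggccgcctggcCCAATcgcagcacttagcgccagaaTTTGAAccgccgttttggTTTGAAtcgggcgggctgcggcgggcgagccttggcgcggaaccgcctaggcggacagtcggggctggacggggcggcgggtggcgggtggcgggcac
Ccnb2, chr9:70421555-70421804: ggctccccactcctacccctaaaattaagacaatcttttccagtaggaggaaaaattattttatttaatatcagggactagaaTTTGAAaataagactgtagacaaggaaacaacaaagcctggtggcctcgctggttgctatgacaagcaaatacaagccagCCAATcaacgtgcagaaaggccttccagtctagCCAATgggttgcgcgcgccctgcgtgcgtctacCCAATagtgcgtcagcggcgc
Cdk1, the mitotic kinase, rose by 2.23 on the log2 scale and has TTTGAA at 71 and 15 bases before the start. Top2a, the topoisomerase that untangles chromosomes, rose by 2.21 and has TTTGAA at 179 bases and its reverse form at 23. Mki67, a coat protein of mitotic chromosomes, rose by 2.03 with TTTGAA at 116 and 98 bases, and Ccnb2, cyclin B2, by 2.02 with TTTGAA at 167 bases. A match describes the letters of the window and is not evidence of a bound factor.

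Keratin and small proline-rich genes were mostly higher, claudins moved in both directions, and markers of alveolar type 1 cells moved little. After injury alveolar type 2 cells divide and pass through a state rich in keratins and tight junction genes before they flatten into type 1 cells. Krt8, the keratin that marks this state, stood at 189, 216 and 268 CPM in control mice and 284, 423 and 607 CPM in bleomycin mice, without overlap, and its log2 fold change was 1.02 ± 0.10 (adjusted p = 6.4e-11). Its partner Krt18 (0.88) and Krt7 (0.78) also rose without overlap, and of 13 keratin and small proline-rich genes 9 rose and 2 fell (10 and 2 with the covariates, 6 and 2 without the fat libraries). Sprr1a, an envelope protein of stressed epithelium, rose from a median of 0.264 to 5.4 CPM. Cldn4, a sealing claudin, rose by 2.54 ± 0.29 (log2, adjusted p = 1.6e-09), and Cldn2, which forms a cation pore, by 2.35. The endothelial claudin Cldn5 fell (-0.97), and Cldn3 did not pass (0.14, adjusted p = 0.061). Of 12 claudins 5 rose and 3 fell (4 and 1 with the covariates, 3 and 1 without the fat libraries), with a median of 0.14. Which epithelium of the lobe the keratin and claudin transcripts came from was not tested. Of 16 alveolar type 1 genes 5 rose and 2 fell (2 and 3 with the covariates, 1 and 0 without the fat libraries), and the median was 0.19. Pdpn (0.60) and Cldn18 (0.60) were higher, Hopx lower (-0.58), and Ager (0.23, adjusted p = 0.056) and Emp2 (0.03, adjusted p = 0.8) did not pass. Epcam, a membrane protein of all epithelium, rose from a median of 67.9 to 85.8 CPM. Without replicate 4 Ager (0.25, adjusted p = 0.0027) and Cldn3 (0.14, adjusted p = 0.031) passed.

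Keratins of basal cells were high in some bleomycin mice. Basal cells are stem cells of the large airway that can migrate into injured alveoli. Krt5, which defines them, stood at 0, 0.194 and 3.39 CPM in control mice and 0, 1.05 and 60.4 CPM in bleomycin mice, with 5 of 10 control libraries and 3 of 16 bleomycin libraries at 0 counts. Replicate 4 of the bleomycin mice held the highest value. Krt14 (3.42) and Krt17 (3.41) passed in the same direction, while Trp63, the transcription factor of these cells, did not (0.29, adjusted p = 0.58). Of 11 basal genes 5 rose and 0 fell, and the other 6 did not pass. Those that rose were Krt5, Krt14, Krt17, Bcam and Ltbp2, which is also counted below as a TGF-beta response gene. Without the fat libraries 1 rose and 0 fell, and with the covariates 8 rose and 1 fell, with Krt15 at 3.97 (adjusted p = 0.0088) against -1.25 without them (adjusted p = 0.32). Without replicate 4 the log2 fold change of Krt5 was 2.32 (adjusted p = 0.069), that of Krt14 2.61 (adjusted p = 0.00046) and that of Krt17 2.66 (adjusted p = 0.012), so Krt5 no longer passed.

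Slc26a4, pendrin, which exchanges chloride for bicarbonate at the apical membrane, had the largest change among 22 genes of ion and water transport. It stood at 0.582, 2.11 and 3.4 CPM in control mice and 21.4, 54.6 and 148 CPM in bleomycin mice, without overlap, and rose by 5.03 ± 0.32 (log2, adjusted p = 3e-16). The other members moved far less, with the chloride channels Ano1 at 0.75 and Slc26a9 at 0.57 and the potassium channel Kcnn4 at 0.98. The sodium channel subunits of alveolar fluid clearance did not pass, with Scnn1a at 0.20 (adjusted p = 0.067), which without replicate 4 passed (0.21, adjusted p = 0.034). Ligands of the EGF receptor, which drive epithelial repair, were among the larger rises in their family. Ereg stood at 0, 0.104 and 0.582 CPM in control mice and 0.457, 3.01 and 11.8 CPM in bleomycin mice and Areg rose from a median of 3.77 to 18.9 CPM, while Egfr itself fell slightly (-0.36). Hbegf rose by 0.64 and Tgfa fell by 0.28 on the log2 scale. The receptor Erbb4, at 0.215, 0.719 and 1.86 CPM in control mice and 0, 0 and 0.617 CPM in bleomycin mice, fell by 3.73, with -1.77 (adjusted p = 0.047) under the covariates and -4.71 (adjusted p = 7.1e-08) without replicate 10.

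Cholesterol synthesis genes rose together at small size. They are induced by the sterol-regulated factor SREBP2 and supply membranes and surfactant. Of 21 genes 16 rose and 1 fell, with a median log2 fold change of 0.40, and with the covariates 12 rose and none fell, and without the fat libraries 8 and none. Mvd rose by 1.18 ± 0.11 (log2, adjusted p = 6.9e-12), and Cyp51 by 0.81, both without overlap. Srebf2, which encodes SREBP2, did not pass (-0.10, adjusted p = 0.14). Fatty acid genes had no common direction, with 6 of 22 higher and 7 lower (7 and 2 with the covariates, 4 and 1 without the fat libraries). Scd1, a desaturase of type 2 cells and of fat, rose by 1.18, and by 1.67 with the covariates. Elovl6 fell (-1.02) over all libraries, where control replicate 1 held 117 CPM against 9.2 CPM in the nearest control library. With the covariates it had 1.06 (adjusted p = 0.00076), and its sign also turned without the fat libraries and by DESeq2.

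Receptors and targets of the BMP pathway were mostly lower. Bone morphogenetic proteins bind paired receptors, activate Smad1, Smad5 and Smad9 and induce the Id genes and the inhibitor Smad6. In lung endothelium the receptors Bmpr2 and Acvrl1 with the co-receptor Eng keep vessels quiet, and antagonists such as gremlin bind the ligands outside the cell. Of 16 receptors, signal proteins and targets 11 fell and 3 rose, with a median of -0.56. With the covariates 10 fell, and without the fat libraries 9. Smad6 stood at 204, 227 and 298 CPM in control mice and 24.9, 82.7 and 202 CPM in bleomycin mice, with a log2 fold change of -1.36 ± 0.19 (adjusted p = 7.6e-08). Every bleomycin mouse was below every control mouse, and replicate 13, at the top of the bleomycin range, came closest to the controls. Eng fell from a median of 599 to 259 CPM, Acvrl1 from a median of 771 to 422 CPM and Bmpr2 from a median of 537 to 238 CPM. Of the targets Id3 (-0.69) and Id1 (-0.58) fell, and Id2 rose (0.63). Among 13 ligands Bmp6, which capillaries express, fell from a median of 277 to 78.2 CPM and Bmp3 fell by 0.70 on the log2 scale, while Bmp4 (0.15, adjusted p = 0.1) and Bmp5 (0.01, adjusted p = 0.92) did not pass. Inhba, the subunit of activin A, rose (2.22), and so did Bmp1 (0.87), a protease that trims procollagens despite its name.

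**Figure D3:**
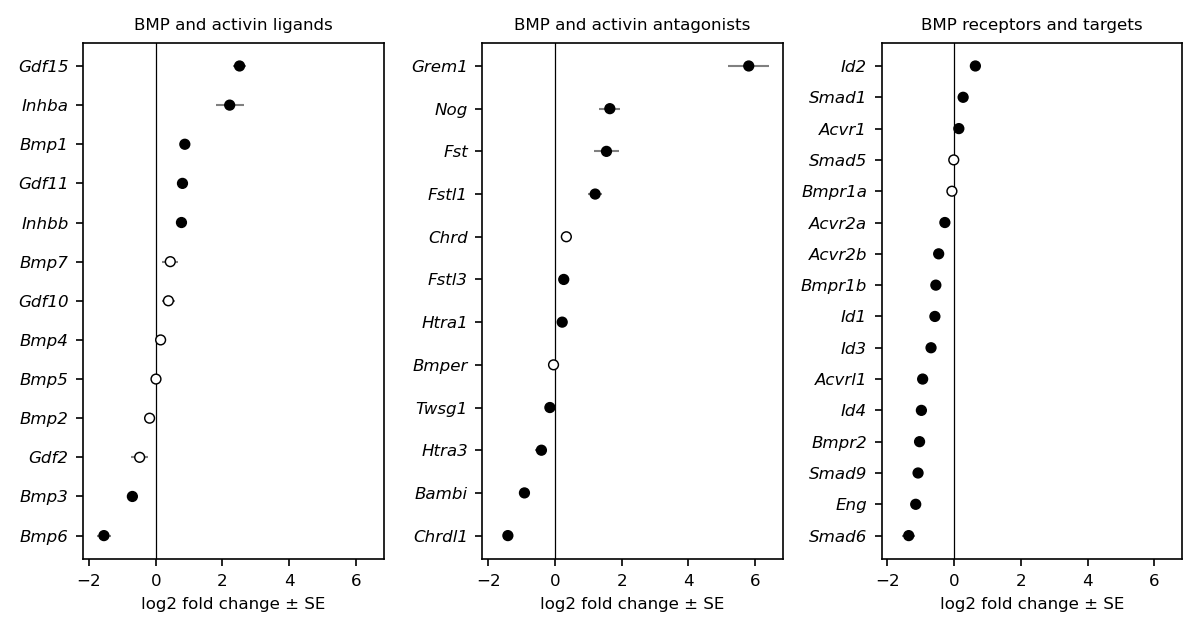
Log2 fold change, bleomycin minus control, with its standard error, of genes of the BMP and activin lists, 1 antagonist left out; filled points passed the test. Grem1 lies above 5 and the receptors Acvrl1, Bmpr2 and Eng and the inhibitor Smad6 lie near or below -1.

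The antagonists of this pathway did not move in 1 direction. Of 13 genes 6 rose and 5 fell (4 and 3 with the covariates, 1 and 3 without the fat libraries). Grem1, gremlin 1, stood at 0, 0.396 and 0.771 CPM in control mice and 3.15, 18 and 128 CPM in bleomycin mice, and its log2 fold change of 5.81 ± 0.61 (adjusted p = 1.8e-10) was the largest rise of all genes whose average log2 CPM was 2 or more. Replicate 4 held the highest value and replicate 13 the lowest of the bleomycin mice, and without replicate 4 the log2 fold change was 5.30 (adjusted p = 1.5e-11). Chrdl1 (-1.41) and the decoy receptor Bambi (-0.91) fell without overlap. Nog rose at very low level (from a median of 0.32 to 1.1 CPM), and the activin binders Fst (1.54) and Fstl1 (1.20) rose.

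Genes that TGF-beta induces in fibroblasts rose in most cases over all libraries. Of 18 response genes 15 rose and 1 fell, with a median of 1.27, and with the covariates 11 rose, and without the fat libraries 9. Fn1, fibronectin, rose from a median of 388 to 2193 CPM and Ltbp2, a latent TGF-beta binding protein family member, from a median of 93.5 to 332 CPM. Col1a1 stood at 156, 196 and 241 CPM in control mice and 248, 566 and 3823 CPM in bleomycin mice. All bleomycin mice were above the controls, and replicate 4 stood apart from the other bleomycin mice. Without it the log2 fold change of Col1a1 was 1.49 (adjusted p = 2.8e-06) against 1.96 with it. Smad7, the feedback inhibitor of the pathway, fell without overlap (-0.70 ± 0.09, adjusted p = 1.5e-08), and Skil (-0.01, adjusted p = 0.93) and Ccn1 (-0.26, adjusted p = 0.28) did not pass.

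Wnt and hedgehog genes had no common direction as groups, and single ligands changed strongly. Among 14 Wnt ligands and R-spondins 5 rose and 4 fell (3 and 3 with the covariates, 3 and 3 without the fat libraries). Among 15 hedgehog genes 5 rose and 3 fell (2 and 2 with the covariates, 1 and 1 without the fat libraries). Wnt10a, a ligand of fibroblasts in fibrotic lung, stood at 0, 0.0902 and 0.237 CPM in control mice and 0.267, 0.961 and 9.31 CPM in bleomycin mice and rose without overlap from almost no counts. Wnt7b, an epithelial ligand, rose from a median of 5.21 to 17 CPM. Wnt2 (-0.92), Wnt2b (-1.21) and Wnt10b (-1.29) fell. Among 18 Wnt antagonists and targets 3 rose and 5 fell (3 and 3 with the covariates, 2 and 1 without the fat libraries). The other 10 did not pass. Those that rose were the secreted inhibitors Sfrp1 (1.87), Frzb (3.44) and Dkk2 (2.82), and the canonical target Axin2 fell (-0.47). In the hedgehog pathway the target Gli1 rose from a median of 6.15 to 11.8 CPM, while Ptch1, also a target, did not pass (-0.13, adjusted p = 0.14), and Scube2, which releases the ligand, fell (-1.31). Of 27 growth factor genes of mesenchyme 4 rose and 14 fell (3 and 10 with the covariates, 3 and 8 without the fat libraries). Igf1, made by macrophages and fibroblasts, rose from a median of 12.2 to 76.8 CPM without overlap, and Pdgfc rose by 2.09, while their receptors Igf1r (-0.60) and Pdgfra (-0.65) fell. Igfbp3 (-1.90) and Fgfr4 (-1.19) fell the most of this group.

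Elastic fibre and basement membrane genes rose in most cases over all libraries, and in fewer in both other fits. Elastin is laid on fibrillin threads and crosslinked by lysyl oxidases. Of 21 genes 14 rose and 2 fell (10 and 2 with the covariates, 6 and 1 without the fat libraries), with Eln from a median of 197 to 1561 CPM, Loxl2 at 1.54 and Fbn1 at 1.47. Ltbp4, a binding protein needed for elastic fibres, fell without overlap from a median of 1004 to 543 CPM. Of 25 proteoglycan and hyaluronan genes 14 rose and 6 fell (8 and 5 with the covariates, 5 and 6 without the fat libraries). The hyaluronan synthase Has2 rose from a median of 0.168 to 1.61 CPM and the hyaluronan-degrading Cemip from a median of 0.44 to 4 CPM, and Cd44, the hyaluronan receptor, rose from a median of 101 to 252 CPM without overlap. Without replicate 4 the log2 fold changes of Has2 and Cemip, 3.93 and 3.77 with it, were 3.20 (adjusted p = 1.2e-05) and 3.03 (adjusted p = 1.5e-05). The small proteoglycans Ogn (-1.34) and Omd (-1.39) fell, and Dcn, decorin, did not pass (-0.11, adjusted p = 0.61). Of 23 basement membrane genes 16 rose and 2 fell (9 and 0 with the covariates, 6 and 0 without the fat libraries). Lama1, a laminin chain of embryonic membranes, stood at 1.78, 3.23 and 8.07 CPM in control mice and 5.36, 32.1 and 75.8 CPM in bleomycin mice. Itgb6, which pairs with Itgav to activate TGF-beta on epithelium, rose from a median of 46.5 to 123 CPM without overlap, and Itgav by 0.64. Itga8 (-0.86), of alveolar fibroblasts, and Itga1 (-0.96), a collagen receptor, fell. Of 22 coagulation genes 13 rose and 3 fell (12 and 3 with the covariates, 7 and 2 without the fat libraries), and F7, factor VII, rose from a median of 16.5 to 101 CPM without overlap. With the fat and airway covariates Omd (-0.91) kept the direction but no longer passed.

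Of 20 genes of fibrotic fibroblasts 16 rose (11 with the covariates, 8 without the fat libraries) and none fell, with Thbs4 at 5.30, Tnc at 4.11 and Adamts4 at 3.63, yet Acta2 (0.05, adjusted p = 0.84) and Postn (0.02, adjusted p = 0.9), usual marks of myofibroblasts, did not pass. Of 18 alveolar and lipid-storing fibroblast genes 10 fell and 2 rose (9 and 4 with the covariates, 7 and 3 without the fat libraries). Inmt, a methyltransferase of these cells, stood at 2297, 2731 and 3179 CPM in control mice and 246, 526 and 2018 CPM in bleomycin mice, and the groups did not overlap. The members that rose were Lpl (1.03) and Plin2 (0.91), which lipid-laden macrophages also express. Of 16 adventitial fibroblast genes 4 rose and 6 fell (2 and 4 with the covariates, 2 and 3 without the fat libraries), with Mfap5 higher (1.28) and Pcolce2 (-1.26) and Pi16 (-1.42) lower. Smooth muscle genes fell in 8 of 14 cases, with the covariates in 1 and without the fat libraries in 2. The exception was Itga7, an integrin of muscle, which rose without overlap (2.07 ± 0.18, adjusted p = 1.2e-12). Pericyte genes fell in 7 of 14 cases (5 with the covariates, 5 without the fat libraries), with the guanylate cyclase subunits Gucy1a1 (-0.62) and Gucy1b1 (-0.63) lower without overlap, and Rgs5 rose (0.94).

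Capillary genes were lower. Aerocytes are the large capillary cells that face the air. Of 14 aerocyte genes 12 fell, 12 with the covariates and 9 without the fat libraries, with a median of -0.91. Ednrb, the endothelin receptor B that defines them with Car4, stood at 114, 122 and 149.9 CPM in control mice and 7.91, 34 and 106 CPM in bleomycin mice, and its log2 fold change was -1.60 ± 0.26 (adjusted p = 2e-06). Fibin (-1.63), Cyp4b1 (-1.27) and Apln (-0.97) fell, and so did Car4 (-0.55). Sirpa, which macrophages express as well, was the member that rose (1.27). Kdr, the VEGF receptor of all capillaries, fell from a median of 644 to 293 CPM. In larger and systemic-type vessels 6 of 24 genes rose and 11 fell (5 and 10 with the covariates, 3 and 9 without the fat libraries). Among those that rose were genes of venules and of bronchial-type vessels, with Lrg1 from a median of 38.4 to 264 CPM, Ackr1 from a median of 0.255 to 1.73 CPM and Col15a1 from a median of 8.28 to 34.8 CPM. Plvap (-1.22), the Notch ligand Dll4 (from a median of 103 to 51.4 CPM) and Efnb2 (-0.99) fell, while Vwf (-0.01, adjusted p = 0.94) did not pass. Of 21 genes of nitric oxide, endothelin and angiotensin signalling 12 fell and 1 rose (11 and 1 with the covariates, 10 and 1 without the fat libraries), the latter being Nos2, the inducible synthase (from a median of 3.57 to 16.3 CPM). The phosphodiesterase Pde5a (-0.71), the natriuretic receptor Npr3 (-1.26) and Ramp2 (-1.11) fell. Of 40 lineage transcription factors 11 rose and 16 fell (5 and 15 with the covariates, 2 and 12 without the fat libraries). The endothelial factor Sox18 (-0.86) fell, and so did Foxf1 (-0.94), which mesenchyme shares. Gata2 (-1.15) of endothelium also fell, and it is counted below among the mast cell, basophil and eosinophil genes as well.

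Genes of natural killer cells and of B cells fell, and those of the CD3 complex of T cells did not pass. Granzymes and perforin are the granule proteins of natural killer and cytotoxic T cells. Gzma stood at 14, 21.1 and 28.4 CPM in control mice and 3.19, 4.99 and 11.4 CPM in bleomycin mice, with no overlap and a log2 fold change of -1.85 ± 0.22 (adjusted p = 2.6e-09). Ncr1 (-1.74), Prf1 (-1.59) and Klre1 (-1.58), genes of natural killer cells, fell without overlap too. In the CD3 complex, which carries the signal of the T cell receptor, Cd3e was at 0.08 (adjusted p = 0.84) and Cd3g at -0.03 (adjusted p = 0.93). Pdcd1, a receptor of exhausted and activated T cells, rose from a median of 0.419 to 1.48 CPM, and Foxp3 of regulatory T cells from a median of 0.851 to 1.58 CPM. Together 3 of 29 T and NK cell genes rose and 12 fell (1 and 8 with the covariates, 0 and 8 without the fat libraries). Of 15 B cell genes 14 fell (12 with the covariates, 6 without the fat libraries), with Cd79a from a median of 59.7 to 21.7 CPM, and none separated the groups without overlap. Jchain of plasma cells stood at 8.5, 26.5 and 48.8 CPM in control mice and 19.2, 89.2 and 988 CPM in bleomycin mice, so that 1 bleomycin mouse, replicate 3, was far above the rest, and of 13 plasma cell genes 5 rose and 5 fell (4 and 1 with the covariates, 3 and 1 without the fat libraries). Dendritic cell genes rose in 13 of 21 cases (9 with the covariates, 6 without the fat libraries), with Fscn1 of migrating cells at 1.87 and Xcr1 at 1.19, and fell in 5 (3 with the covariates, 2 without the fat libraries), with Clec9a at -0.53. Mast cell, basophil and eosinophil genes fell in 8 of 10 cases (3 with the covariates, 4 without the fat libraries, where 9 were tested), most at low CPM, and the median moved from -1.19 to -0.57 with the covariates. Red cell and platelet genes fell in 12 of 13 cases (10 with the covariates, 6 without the fat libraries), with the haemoglobin gene Hbb-bs from a median of 1047 to 418 CPM and the platelet chemokine Ppbp from a median of 32.6 to 9.72 CPM. The near-identical globin genes share reads, and their split is uncertain. With the fat and airway covariates Foxp3 (0.996) kept the direction but no longer passed.

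Enzymes that metabolise foreign compounds fell, and stress-response genes moved in both directions. Of 29 drug-metabolising enzymes 20 fell and 1, Blmh, rose. With the covariates 16 fell, and without the fat libraries 9. Fmo1, a flavin monooxygenase, fell without overlap from a median of 558 to 169 CPM, and Gstm2 without overlap (-0.73). Cyp2e1 (-4.55) and Sult1d1 (-3.19) fell most, and with the covariates they had -0.87 (adjusted p = 0.05) and -0.76 (adjusted p = 0.22). Of 28 targets of the oxidant sensor NRF2 13 rose and 8 fell (14 and 6 with the covariates, 12 and 4 without the fat libraries). The cystine transporter Slc7a11 (1.58), haem oxygenase Hmox1 (1.36) and the glutathione-synthesis subunit Gclc (0.91) rose. Gstm1 (-1.01), Pir (-0.98) and Sod1 (-0.54) fell, and Sod2 did not pass (-0.02, adjusted p = 0.76). In the unfolded protein response 15 of 25 genes rose and 6 fell (14 and 5 with the covariates, 9 and 4 without the fat libraries). Atf3, a stress-induced transcription factor, rose the most of the list (from a median of 10.7 to 28.1 CPM, 1.19 on the log2 scale), and the folding and transport genes Sdf2l1 (1.02) and Kdelr3 (1.06) rose. Atf5 (-0.90), Chac1 (-0.72) and Herpud1 (-0.60) fell. Arg1, arginase 1 of alternatively activated macrophages, rose from a median of 2.2 to 11.8 CPM among 27 amino acid genes, of which 12 rose (11 with the covariates, 9 without the fat libraries). With the fat and airway covariates Cyp2e1 (-0.87) and Sult1d1 (-0.76) kept the direction but no longer passed.

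Glycolysis genes rose more often than they fell, and the calls of respiratory chain genes differed with the fat and airway covariates. Of 29 glycolysis and hypoxia genes 13 rose and 5 fell (15 and 4 with the covariates, 12 and 2 without the fat libraries), with Hk3 of leukocytes at 1.28, Eno1 at 0.66 and Ldha at 0.61. Epas1, the hypoxia factor of endothelium, fell (-0.96). Of 24 respiratory chain genes 2 rose and 4 fell. With the covariates 18 rose and none fell, and the median moved from -0.06 to 0.22, while without the fat libraries 4 rose and 0 fell. Sdha did not pass (-0.16, adjusted p = 0.087), and with the covariates it had 0.15 (adjusted p = 0.012). Without replicate 4 Sdha had -0.19 (adjusted p = 0.049) and without replicate 10 -0.19 (adjusted p = 0.046), and it passed in both. Control replicate 1 stood apart, with Sdha at 680 CPM, Eno1 at 514 and Ldha at 459, against 342, 204 and 323 in the nearest control library. The summed level of the respiratory chain genes was 1809, 1922 and 3700 CPM in control mice and 1867, 1967 and 2147 CPM in bleomycin mice. How far control replicate 1 moves these calls was not tested.

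Clock genes and early-response genes differed between groups as well, and the hour of dissection is not given. Nr1d1, the repressor REV-ERB alpha, stood at 265, 319.6 and 389 CPM in control mice and 81.6, 159 and 243 CPM in bleomycin mice, with no overlap and a log2 fold change of -1.08 ± 0.15 (adjusted p = 1.2e-07). Hlf (-0.93) and Dbp (-0.83), outputs of the clock, fell, and Nfil3, their antagonist, rose (1.09). The core gene Arntl (0.11, adjusted p = 0.7) did not pass. Among 18 clock genes 3 rose and 8 fell (3 and 9 with the covariates, 3 and 6 without the fat libraries). The other 7 did not pass. A difference in time of day was not tested. Of 14 glucocorticoid-response genes 4 rose and 7 fell (3 and 5 with the covariates, 2 and 3 without the fat libraries), with Fkbp5 higher (0.99) and Zbtb16 (-0.83) and the receptor Nr3c1 (-0.41) lower. Immediate early genes, which handling of tissue can also induce, fell in 9 of 18 cases (10 with the covariates, 6 without the fat libraries), with Nr4a1 at -1.08 and Ier2 at -0.97. Myc (0.96), Egr2 (1.48) and Fosl1 (1.63) rose. With the fat and airway covariates Fkbp5 (0.70) and Zbtb16 (-0.92) kept the direction but no longer passed.

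Genes of tissues that lie beside the alveoli were among the largest falls. All 10 tested fat genes fell, and their summed level ran from 234 to 3369 CPM in control mice and 84.8 to 210.2 CPM in bleomycin mice. Adipoq had 0 counts in 1 of 10 control libraries and in 12 of 16 bleomycin libraries, and Pck1 in 2 and 12. Of 15 large airway genes 11 fell, with a summed level of 133 to 2581 CPM in control mice and 62 to 304 CPM in bleomycin mice. All 16 cardiac muscle genes fell, and mouse pulmonary veins carry a sleeve of such muscle. Myh6, the atrial myosin, stood at 105, 279.6 and 799 CPM in control mice and 0, 14.9 and 253 CPM in bleomycin mice, and 3 bleomycin libraries had 0 counts. Its log2 fold change was -2.93, and without replicate 10 it was -3.51 (adjusted p = 0.0015). Of 18 ciliated cell genes 17 fell, with a median of -0.84, and of 14 club cell genes 9 fell, among them Scgb1a1, the main club secretion (from a median of 20524 to 8632 CPM). With the covariates 2 fat, 4 large airway, 3 cardiac, 1 ciliated and 6 club genes fell, and without the fat libraries 2, 2, 4, 0 and 2. The fat and large airway genes make up the covariates, and the fat libraries are defined by Adipoq. Fewer calls of fat genes in both fits, and of airway genes with the covariates, follow from that choice. Without the fat libraries only 5 fat genes were tested. How much of the falls in fat, airway, cardiac, ciliated and club genes came from what was cut with the lobe was not tested. Of 13 genes of the mesothelium, which coats the lobe, 2 rose and 3 fell (2 and 0 with the covariates, 1 and 0 without the fat libraries). Their summed level ran from 783 to 1091 CPM in control mice and 518 to 1620.0 CPM in bleomycin mice. Msln, mesothelin, rose from a median of 108 to 261 CPM (1.22 ± 0.26, adjusted p = 9.2e-05), with 0.97 (adjusted p = 0.033) under the covariates and 1.07 (adjusted p = 0.15) without the fat libraries, where it did not pass. Upk3b did not pass (-0.12, adjusted p = 0.68).

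**Figure D4:**
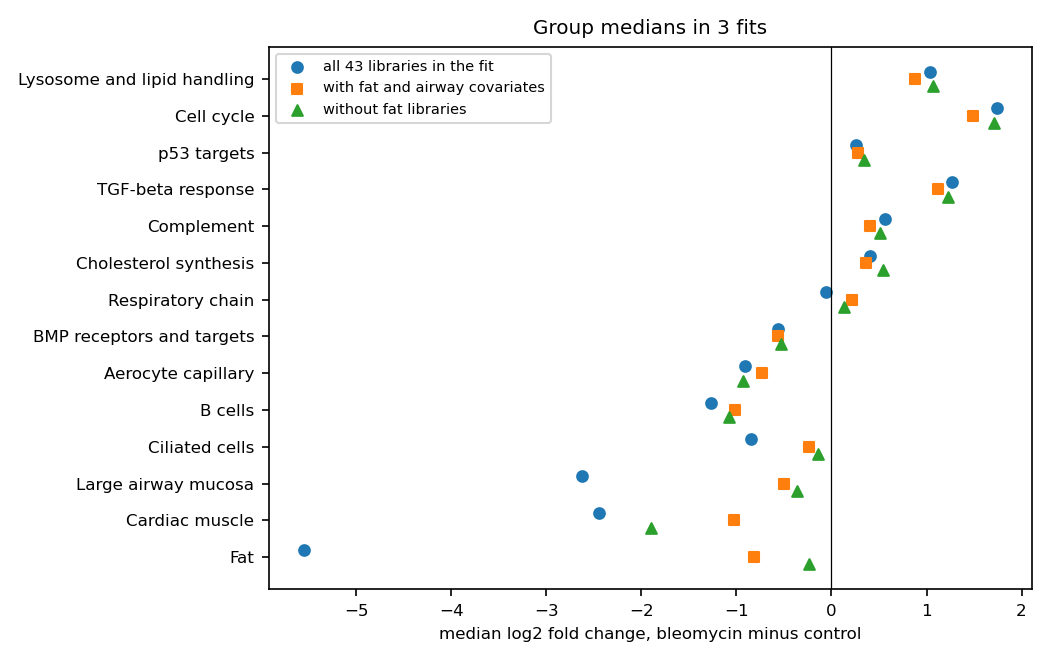
Median log2 fold change of 14 gene groups in the fit to all 43 libraries, with fat and airway covariates, and without the fat libraries. Lysosome, p53 target, cell cycle, BMP receptor, aerocyte and B cell medians lie close together in the 3 fits, and those of fat, large airway, cardiac and ciliated genes move toward 0. The covariates are made from the fat and large airway genes, and the fat libraries are defined by the fat gene Adipoq. The move of fat genes in both fits, and of airway genes with the covariates, follows from that choice.

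Falls that passed in all 3 fits were found in other genes. By size they began with Cidec (-3.13), followed by Bex2 (-3.10) and the airway gene Lypd2 (-2.73), and Bex2 stood at 32.4, 37.1 and 50.8 CPM in control mice and 1.31, 2.9 and 13.3 CPM in bleomycin mice. Muscle genes were among them, with titin (Ttn), Tnnc1 (-2.38), Actc1 (-2.11) and Ryr2 (-2.22). Igfbp3, Gzma and the paraoxonase Pon1 (-1.86) of club cells also remained. By the ratio of change to error the first falls were Abi3bp (-1.20 ± 0.11, adjusted p = 2.8e-12), a matrix protein of resting mesenchyme, Bex2, and Prex2 (-0.90 ± 0.08, adjusted p = 8.5e-12), an activator of the GTPase Rac. Abi3bp stood at 95.3, 104 and 115 CPM in control mice and 30.3, 42.7 and 63.9 CPM in bleomycin mice, and all bleomycin mice were below all control mice.

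Across the 16 bleomycin mice the macrophage gene Spp1, osteopontin, was set against 1 gene each of 6 other processes, to ask whether mice with more of one had more of the other. Krt8 had the closest relation, with Pearson's r = 0.82 (permutation p = 0.00012, adjusted p = 0.00072 over 6 relations) and Spearman's rho = 0.75 (permutation p = 0.0013, adjusted p = 0.0076). Without the 2 mice farthest from the median of Spp1, r was 0.66 (permutation p = 0.011, adjusted p = 0.065), so that call rests on them. They were replicates 10 and 13, with Spp1 at 553 and 565 CPM and Krt8 at 284 and 299 CPM. Among bleomycin mice these 2 lay nearest the controls on the first principal component. Within the 11 mice of name series A, the largest of 3 number series in the library names, r was 0.80 (permutation p = 0.0033, adjusted p = 0.020). Mki67 had r = 0.60 (permutation p = 0.015, adjusted p = 0.044) with rho = 0.43 (permutation p = 0.10, adjusted p = 0.20), and r = 0.18 without the 2 farthest mice, so that relation rests on them. Saa3 had r = 0.53 (permutation p = 0.036, adjusted p = 0.071) and rho = 0.50 (permutation p = 0.049, adjusted p = 0.15). For Cdkn1a (r = 0.30 and rho = 0.31, permutation p = 0.27 and 0.24), Col1a1 (r = 0.25 and rho = 0.24, permutation p = 0.35 and 0.37) and Kdr (r = -0.15 and rho = -0.01, permutation p = 0.58 and 0.98) no relation passed. Collagen and Spp1 levels thus varied among these mice without a detectable relation at this number of animals.

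**Figure D5:**
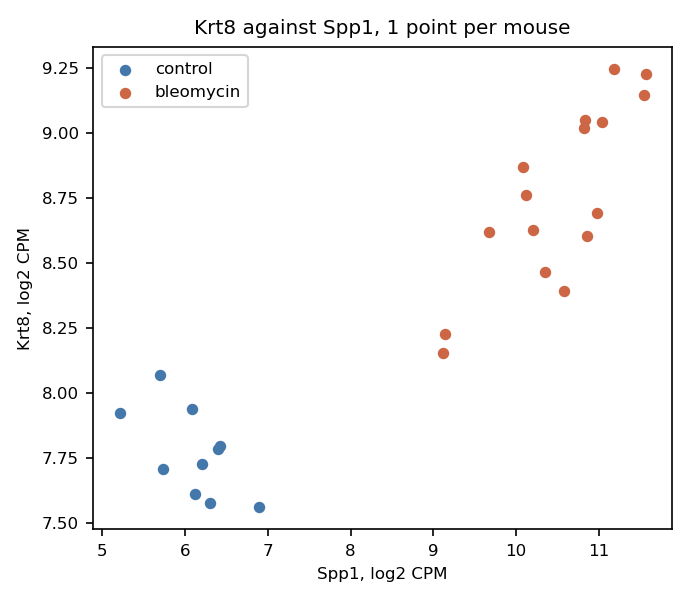
Krt8 against Spp1 in log2 CPM, 1 point per mouse, for 16 bleomycin and 10 control mice. Among bleomycin mice Krt8 is higher where Spp1 is higher (r = 0.82), and all of them lie above the control mice on both axes.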

How the data were processed

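The deposited table holds whole-number read counts per gene for 43 libraries, made by the authors. Per the labels' protocols, RNA of the inferior lobe was polyA-selected, made into directional libraries and read single-end. The submitters' processing notes name STAR 2.7.0f, R 3.6.0 and GRCm38 without their role, and the counting tool and its strand setting are stated neither in the labels nor in these notes. Reads of overlapping or near-identical genes (globins, Saa, Oas) therefore cannot be split with certainty.

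Of 21938 genes, 14836 passed edgeR's filterByExpr (minimum count 10, minimum total 15) and held 99.96% of counts. Counts were scaled by TMM and tested with edgeR 4.0.16 (R 4.3.3), quasi-likelihood, robust, over all 43 libraries, with Benjamini-Hochberg adjustment over all tested genes and a threshold of 0.05. CPM are TMM-adjusted and log2 CPM use a prior count of 2. The covariates are the mean log2 CPM of the tested fat genes and that of the tested large airway genes in each library. limma 3.58.1 (voom) and DESeq2 1.42.0 were alternatives, and the code was tested on simulated data. No 2 libraries of a group agreed within sampling noise. Correlations used 100000 permutations (two-sided).

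Members and lists were chosen with earlier results of these data known. Named genes were those with the largest rises and falls (12 each) and the largest ratios to the standard error (8 each) where the average log2 CPM was 2 or more, the 15 largest falls that passed in all 3 fits, and of each list up to 5 called and 2 not called members. Other named members were chosen after their values were seen, for their known place in a pathway. Some genes are not reported here.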

Additional observations from a re-analysis of the deposited data

Results flagged for a closer look

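Among the 305 genes named above, 29 had 1 control library that stood apart from the other 9, by the gap to the nearest library relative to the range of the group (Dixon's test at 95%). About 1 in 20 genes would be picked by chance alone. The bleomycin group has more than 10 libraries and was not examined in this way.

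Control replicate 1 had the highest level of Elovl6 (117 CPM against 9.2 CPM in the nearest library), Eno1 (514 CPM against 204 CPM in the nearest library), Ldha (459 CPM against 323 CPM in the nearest library), Lpl (568 CPM against 243 CPM in the nearest library), Plin2 (245 CPM against 165 CPM in the nearest library), Rgs5 (38.6 CPM against 11.7 CPM in the nearest library), Scd1 (4960.0 CPM against 2020.0 CPM in the nearest library), Sdha (680 CPM against 342 CPM in the nearest library) and Sod2 (145 CPM against 113 CPM in the nearest library). Control replicate 2 had the highest level of Eng (833 CPM against 635 CPM in the nearest library), Epas1 (4240.0 CPM against 3470.0 CPM in the nearest library), Lama1 (8.07 CPM against 3.94 CPM in the nearest library), Lyve1 (557 CPM against 291 CPM in the nearest library), Plvap (772 CPM against 525 CPM in the nearest library) and Vwf (1310.0 CPM against 850 CPM in the nearest library). Control replicate 5 had the highest level of Bmp4 (97.7 CPM against 75.5 CPM in the nearest library), Cldn18 (1030.0 CPM against 925 CPM in the nearest library), Olr1 (13.8 CPM against 9.19 CPM in the nearest library) and Sirpa (141 CPM against 118 CPM in the nearest library). Control replicate 4 had the lowest level of Fibin (45.3 CPM against 58.6 CPM in the nearest library), Igf1 (8.09 CPM against 10.4 CPM in the nearest library) and Jchain (8.5 CPM against 20.2 CPM in the nearest library). Control replicate 4 had the highest level of Blmh (59 CPM against 55.3 CPM in the nearest library) and Fosl1 (0.899 CPM against 0.252 CPM in the nearest library). Control replicate 2 had the lowest level of Ppbp (9.98 CPM against 22.7 CPM in the nearest library). Control replicate 3 had the lowest level of Scube2 (41.2 CPM against 54.6 CPM in the nearest library). Control replicate 6 had the lowest level of Tnfrsf9 (0.174 CPM against 0.771 CPM in the nearest library). Control replicate 7 had the lowest level of Wnt10b (21.3 CPM against 31.1 CPM in the nearest library). Control replicate 9 had the lowest level of Bbc3 (18.1 CPM against 23.9 CPM in the nearest library).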

How the results depend on the processing

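The comparison was repeated under 16 alternatives, of which the leaving out of bleomycin replicate 4, 10 or 13 was added after seeing the data. The 8585 called genes became 3654 without the fat libraries, with 2050 higher against 4381 and 1604 lower against 4204, and 5821 with the fat and airway covariates, of which 2565 were lower. The cause of these differences was not tested; leaving out the fat libraries also leaves fewer samples. Under the other alternatives the number of called genes lay between 6717 and 9054. Of the named genes, 52 no longer passed without the fat libraries, 14 with the covariates and 7 without the airway control libraries. Calls of single genes above refer to the fit over all libraries unless another is named. Most of the 52 are not marked where they are named. The sign turned with the covariates for Bpifa1 (0.36), Elovl6 (1.06), Krt15 (3.97) and Sdha (0.15), and without the fat libraries for Bpifa1 (0.91) and Elovl6 (0.59). Bpifa1 is itself a gene of the airway covariate. Elovl6 was 0.22 by DESeq2. For the relation to Spp1 across bleomycin mice, Krt8 had r = 0.66 without the 2 farthest mice (permutation, adjusted p = 0.065). Mki67 had r = 0.18 without the 2 farthest mice, r = 0.49 in name series A and rho = 0.43, and it did not pass in these. No paired analysis was possible because the labels give no replicate numbers. Those used here number the libraries of each group in sample order. Name series A, B and C held 11, 2 and 3 bleomycin libraries and 9, 0 and 1 control libraries, and bleomycin replicate 13 is in series B. Low counts limit genes such as Wnt10a, Nog and Krt17, where single counts move the fold change.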
